A study of Homo sapiens with 12 samples.

Results

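ATP1B1, ATP1B2 and ATP1B3 encode the beta subunits of the sodium pump (Na,K-ATPase), and FXYD5, also called dysadherin, encodes a small single-span membrane protein that binds the pump. These 4 genes were taken by symbol from 24559 gene symbols in the polysome RNA-seq data of 3 established triple-negative breast cancer (TNBC) cell lines, and the 19 transcripts of ATP1B1 were also read one by one. In MDA-MB-231 and SUM159, cells carrying a shRNA against TRMT112 (KD) were set beside cells with an empty vector (EV), and in BT549, cells carrying a TRMT112 open reading frame (OE) beside EV. TRMT112 is the partner that stabilizes several RNA and protein methyltransferases, including enzymes that modify 18S rRNA. Each of the 6 groups had 2 libraries of RNA pooled from the polysome fractions of a sucrose gradient, and no other treatment was labelled. KD and its EV control were lentiviral GIPZ plasmids under puromycin selection, the control plasmid holding a non-silencing shRNA, and OE and its EV were expression plasmids under G418 selection. SUM159 was grown with insulin and hydrocortisone, which the media of the other lines did not hold. BT549 was grown in another base medium and with more serum than the other lines. Line and medium therefore cannot be told apart in comparisons between lines. The same holds for line and type of EV plasmid where BT549 is compared with another line. Any difference in handling or deposit between the lines cannot be told apart from line either. The deposited columns do differ by line: a missing mark occurs only in the 8 MDA-MB-231 and SUM159 columns.

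The sodium pump moves sodium out of the cell and potassium in at the cost of ATP. Its alpha subunit carries the ion and ATP sites, while the glycosylated beta subunit is needed for the folding of alpha, for its transport to the plasma membrane and for the affinity for potassium. Beta subunits also reach across the cell border: beta 1, the product of ATP1B1, takes part in contacts between epithelial cells, and beta 2 was first described as an adhesion molecule on glia. FXYD proteins tune the kinetics of the pump, and FXYD5 is in addition known for weakening contacts between cells.

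The 4 genes lie on the plus strand of GRCh38, ATP1B1 at chr1:169105697-169310992, ATP1B2 at chr17:7646627-7657770, ATP1B3 at chr3:141876124-141926549 and FXYD5 at chr19:35154730-35169881 (GENCODE 44). The coding sequences of the leading transcripts were 909 bases in ATP1B1, 870 in ATP1B2, 837 in ATP1B3 and 534 in FXYD5. The beta subunits shared 53.7% of aligned bases between ATP1B1 and ATP1B2, 49.7% between ATP1B1 and ATP1B3 and 54.9% between ATP1B2 and ATP1B3. Their second coding exons are shown because they code for the membrane-spanning segment and have the same length in each, 129 bases, at chr1:169111370-169111498, chr17:7653374-7653502 and chr3:141903620-141903748. Capitals mark the 65 positions (50.4%) that are identical in all 3 genes.
ATP1B1: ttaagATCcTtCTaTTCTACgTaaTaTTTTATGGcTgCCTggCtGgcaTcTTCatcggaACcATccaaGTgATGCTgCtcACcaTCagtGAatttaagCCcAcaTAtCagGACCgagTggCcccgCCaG
ATP1B2: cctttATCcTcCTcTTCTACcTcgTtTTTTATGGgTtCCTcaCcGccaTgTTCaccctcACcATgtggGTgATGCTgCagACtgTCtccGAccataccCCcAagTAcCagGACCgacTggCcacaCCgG
ATP1B3: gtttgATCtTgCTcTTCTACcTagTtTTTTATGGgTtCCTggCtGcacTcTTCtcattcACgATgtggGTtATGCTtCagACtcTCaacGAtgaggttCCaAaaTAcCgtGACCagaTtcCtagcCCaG

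FXYD5 is no relative of the beta subunits in sequence, and it is shown by the stretch of its coding sequence around the short motif that gives the FXYD family its name. Capitals mark the motif codons, bases 400 to 414 of the coding sequence of transcript FXYD5-204.
FXYD5: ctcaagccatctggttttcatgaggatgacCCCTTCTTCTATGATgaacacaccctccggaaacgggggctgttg

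The deposited values were expected counts per transcript, in which reads that fit more than 1 transcript are split among those transcripts. They totalled 22954226 to 27434677 per library and were summed per symbol. Levels of a gene are given as CPM, the gene's count relative to the library's total, after scaling by TMM, the trimmed mean of M-values, and comparisons between genes in TPM, which also divides by transcript length. The targeted gene followed its labels: TRMT112 stood at 169 ± 6.19 CPM (SD, n = 2) in MDA-MB-231 EV and 72.1 ± 2.42 in KD, at 269.7 ± 6.91 in SUM159 EV and 159.1 ± 6.19 in KD, and at 128.9 ± 0.340 in BT549 EV and 180.0 ± 1.00 in OE. Of the markers read for the lines, vimentin (VIM) was high at group means of 717 to 1983 CPM, and group means of PGR, EPCAM and CDH1 stayed under 3 CPM. ERBB2 lay at 59.1 to 140.5 CPM, and leukocyte, endothelial and hepatocyte markers (PTPRC, PECAM1, ALB) at 4.01 CPM or less. The estrogen receptor gene ESR1 is not reported here. The epithelial keratins KRT8 and KRT18 were at 189 to 409 CPM in MDA-MB-231 and SUM159 and at 0.631 CPM or less in BT549. Because only polysomal RNA was sequenced, a change in the amount of an mRNA and a change in its ribosome loading cannot be told apart, and scaling libraries to each other hides a change shared by all mRNAs.

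ATP1B1 polysomal mRNA was higher in SUM159 KD and in BT549 OE than in the EV cells of the same line, and slightly lower in MDA-MB-231 KD. In MDA-MB-231, EV gave 75.9 and 82.5 CPM and KD gave 66.8 and 67.7 CPM. In SUM159 the values were 21.9 and 18.6 CPM in EV and 47.7 and 46.3 CPM in KD. BT549 EV stood at 24.3 and 22.2 CPM and BT549 OE at 75.4 and 81.2 CPM. The EV and modified libraries did not overlap in any of the lines. How many of all genes are separated in this way was not counted, for this or for the separations given below. In MDA-MB-231 the log2 fold change of KD over EV was -0.24 (SE 0.06; edgeR quasi-likelihood test, Benjamini-Hochberg adjusted p = 0.0026), where 37.7% of the 16538 genes tested were called in either direction at an adjusted p under 0.05. Without the second EV library it was -0.17 and no longer called (edgeR adjusted p = 0.0787). In SUM159 it was 1.21 (SE 0.07, edgeR adjusted p = 1.04e-12), in a comparison that called 60.1% of genes. The change in BT549 OE was 1.75 (SE 0.07, 95% interval 1.60 to 1.90, edgeR adjusted p = 2.13e-16), 3.36-fold, where 70.6% of genes were called. TRMT112 was lowered in SUM159 and raised in BT549, and ATP1B1 rose in both.

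The KD effect on ATP1B1 differed between the lines. The log2 fold change in MDA-MB-231 was smaller than that in SUM159 by a difference of -1.45 (SE 0.09, 95% interval -1.65 to -1.25, edgeR adjusted p = 8.57e-12), and 50.9% of genes differed at the same threshold. The control levels differed as well: ATP1B1 was lower in SUM159 EV than in MDA-MB-231 EV by a log2 difference of -1.97 (SE 0.07, edgeR adjusted p = 1.37e-17), where 75.7% of genes were called. From lowest to highest, the group means of ATP1B1 were 20.2 CPM in SUM159 EV, 23.3 in BT549 EV, 47.0 in SUM159 KD, 67.3 in MDA-MB-231 KD, 78.3 in BT549 OE and 79.2 in MDA-MB-231 EV. BT549 OE and MDA-MB-231 EV overlapped, and the other neighbours in this order did not. The lowest neighbours, SUM159 EV and BT549 EV, differed by a log2 value of 0.20 (SE 0.08, edgeR adjusted p = 0.0333), where 78.4% of genes were called, and by -0.01 when libraries were scaled by library size only.

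**Figure D1:**
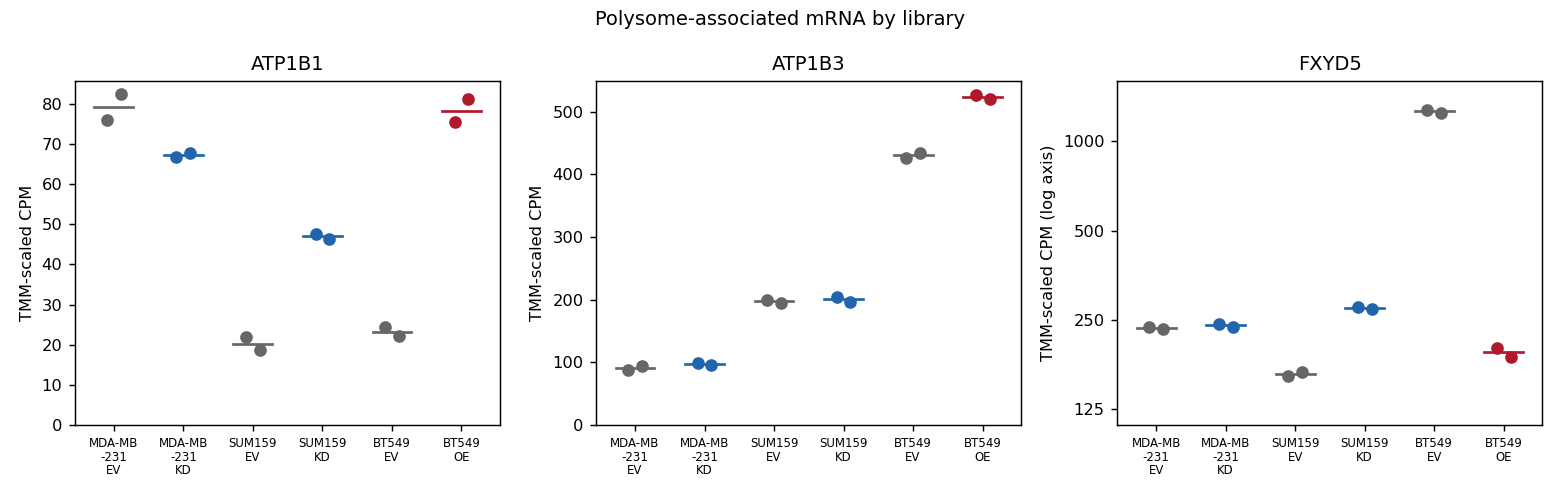
TMM-scaled CPM of ATP1B1, ATP1B3 and FXYD5 in polysomal RNA, with 1 point per library and a line at the mean of the 2 libraries of each group (grey EV, blue KD, red OE). The FXYD5 axis is logarithmic. ATP1B1 lay between 18.6 and 24.3 CPM in SUM159 EV and BT549 EV and at 46.3 CPM or more in the other groups, and FXYD5 at 1248 and 1281 CPM in BT549 EV only.

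ATP1B3, whose product beta 3 is found in many tissues, varied far more between lines than with TRMT112. Its libraries gave 87.7 and 93.5 CPM in MDA-MB-231 EV and 99.0 and 95.8 CPM in KD. SUM159 held 200.01 and 195.6 CPM in EV and 204.6 and 197.0 CPM in KD, so that the groups overlapped. BT549 rose from 425.7 and 435.1 CPM in EV to 527.2 and 520.9 CPM in OE. The log2 fold change was 0.28 in BT549 OE (SE 0.03, edgeR adjusted p = 3.1e-08). In SUM159 KD it was 0.02 (SE 0.03, 95% interval -0.05 to 0.09, edgeR adjusted p = 0.632). MDA-MB-231 KD gave 0.10 (SE 0.04, edgeR adjusted p = 0.0408), which was called in the full fit but not with library size only (0.01) nor with each line fitted alone (0.09). It also lost the call without the first EV library (0.06), the first KD library (0.08) or the second KD library (0.13). The KD effects of the lines differed by 0.08 (95% interval -0.03 to 0.19, edgeR adjusted p = 0.201).

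Between the EV groups, ATP1B3 was lowest in MDA-MB-231, where ATP1B1 was highest. ATP1B3 was higher in SUM159 EV than in MDA-MB-231 EV by a log2 difference of 1.13 (SE 0.04, edgeR adjusted p = 3.4e-18), and higher in BT549 EV than in SUM159 EV by 1.12 (SE 0.03, edgeR adjusted p = 3.62e-19). Against MDA-MB-231 EV, BT549 EV differed by 2.25 for ATP1B3 and by -1.77 for ATP1B1, in a comparison that called 79.5% of genes. These pairs share EV libraries and are not independent of each other.

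Per length, ATP1B3 was the larger of the beta subunit mRNAs in every library, and the share of ATP1B1 was far from constant. ATP1B1 made up 43.4% and 43.8% of the summed beta subunit TPM in MDA-MB-231 EV and 37.7% and 39.1% in KD. Its share was 8.50% and 7.85% in SUM159 EV and 17.0% and 16.6% in KD. BT549 EV gave 4.97% and 4.59% and OE 11.9% and 12.6%. No EV library overlapped with a modified library of its line. The ratio of ATP1B3 to ATP1B1 was 1.29 ± 0.0126 (SD, n = 2) in MDA-MB-231 EV and 1.60 ± 0.0670 in KD. It fell from 11.2 ± 0.682 to 4.95 ± 0.0848 in SUM159 and from 19.9 ± 1.20 to 7.14 ± 0.335 in BT549. Dividing by the longest annotated transcript of each gene instead gave higher ratios, of 3.79 and 3.72 for EV and 4.87 and 4.65 for KD of MDA-MB-231, 30.05 and 34.5 in SUM159 EV against 14.1 and 13.98 in KD, and 57.5 and 64.2 in BT549 EV against 22.97 and 21.1 in OE. With 2 libraries against 2 no exact test of these shares can pass 0.05, and they are given as a description.

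The summed beta subunit level was read in TPM, which was not scaled by TMM between libraries. It was 181.8 ± 8.97 TPM in MDA-MB-231 EV and 167.9 ± 0.745 in KD, and 212.8 ± 4.28 TPM in SUM159 EV and 220.5 ± 1.99 in KD. In BT549 it was 388.2 ± 6.12 TPM in EV and 506.9 ± 7.28 in OE. Of the difference in BT549, ATP1B3 made up the larger part in TPM, from 369.6 ± 6.89 to 444.2 ± 3.50, although ATP1B1 changed by the larger fold, from 18.5 ± 0.772 to 62.3 ± 3.41. In SUM159, ATP1B3 was at 195.4 TPM in EV and 183.4 in KD, but at 197.8 and 200.8 in TMM-scaled CPM.

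**Figure D2:**
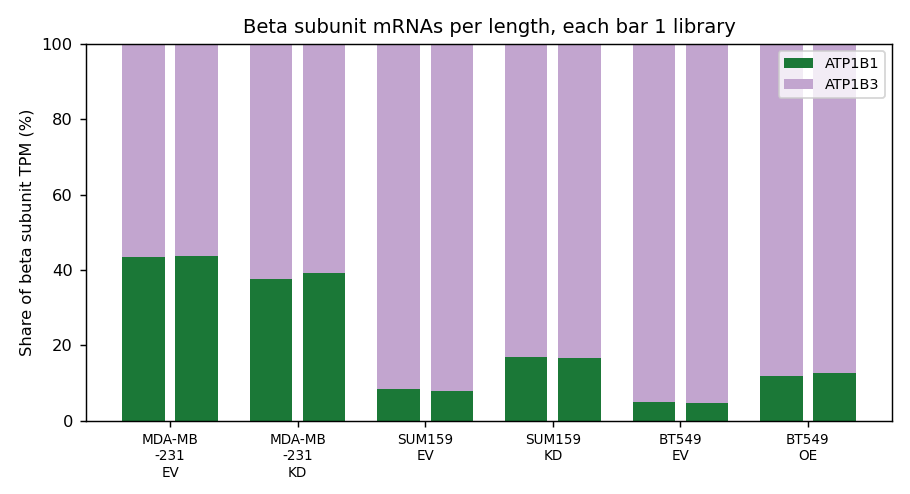
Share of ATP1B1 (green) and ATP1B3 (purple) in the summed TPM of the beta subunit mRNAs, in percent, with 1 bar per library and 2 bars per group. ATP1B2, at most 0.126%, is too small to be seen. ATP1B1 made up 37.7% to 43.8% in MDA-MB-231 and at most 17.0% in the other lines.

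ATP1B2, which is mostly an mRNA of brain and other nervous tissue, was close to absent and did not pass the filter on low counts. Its expected counts were 0 in all 4 MDA-MB-231 libraries, in both SUM159 EV libraries and in the first SUM159 KD library, and 2 in the second. In BT549 EV each library had 1 count, and in OE the libraries had 3 and 12. A count of 0 allows up to 3 counts, or 0.122 to 0.131 CPM of unscaled counts at the depth of these libraries, which covers counting error only. Of its 3 transcripts, 2 have no number in the MDA-MB-231 and SUM159 columns and were taken as 0, so the values in those lines cover the transcript ATP1B2-201 alone. Without the filter, the BT549 comparison gave an unadjusted p of 0.0882 (edgeR adjusted p = 0.159), and no difference was detectable at this depth.

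FXYD5 was higher in SUM159 KD and much lower in BT549 OE, the largest change of the 3 genes that passed the filter on low counts. SUM159 EV held 161.4 and 166.6 CPM and SUM159 KD 275.3 and 272.4 CPM. BT549 EV held 1281 and 1248 CPM and BT549 OE 200.2 and 186.8 CPM. In MDA-MB-231 the libraries gave 236.7 and 233.2 CPM in EV and 242.4 and 236.1 CPM in KD. Groups were fully apart in SUM159 and BT549 and overlapped in MDA-MB-231. FXYD5 fell by 2.71 on the log2 scale in BT549 OE (SE 0.03, edgeR adjusted p = 3.43e-26), to 0.153 of its EV level. In SUM159 KD the log2 fold change was 0.74 (SE 0.03, edgeR adjusted p = 5.84e-15). In MDA-MB-231 KD it was 0.03 (SE 0.03, 95% interval -0.04 to 0.09, edgeR adjusted p = 0.589). The KD effects differed between the lines by -0.71 (SE 0.05, edgeR adjusted p = 1.17e-11).

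Of the 6 groups, FXYD5 was highest in BT549 EV. FXYD5 was higher there than in MDA-MB-231 EV by a log2 difference of 2.43 (SE 0.03, edgeR adjusted p = 6.95e-26), and than in SUM159 EV by 2.95 (SE 0.03, edgeR adjusted p = 4.65e-27). SUM159 EV was lower than MDA-MB-231 EV, at -0.52 (SE 0.03, edgeR adjusted p = 1.97e-12). The order of the group means was 164 CPM in SUM159 EV, 193.5 in BT549 OE, 235.0 in MDA-MB-231 EV, 239.2 in MDA-MB-231 KD, 273.8 in SUM159 KD and 1265 in BT549 EV, and of these neighbours only the MDA-MB-231 groups overlapped. Per length, FXYD5 exceeded the summed beta subunit mRNAs in every group but BT549 OE, with 544.0 ± 4.97 TPM in MDA-MB-231 EV, 330.7 ± 5.36 in SUM159 EV and 2210 ± 29.8 in BT549 EV, against 333.5 ± 10.8 in BT549 OE.

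**Figure D3:**
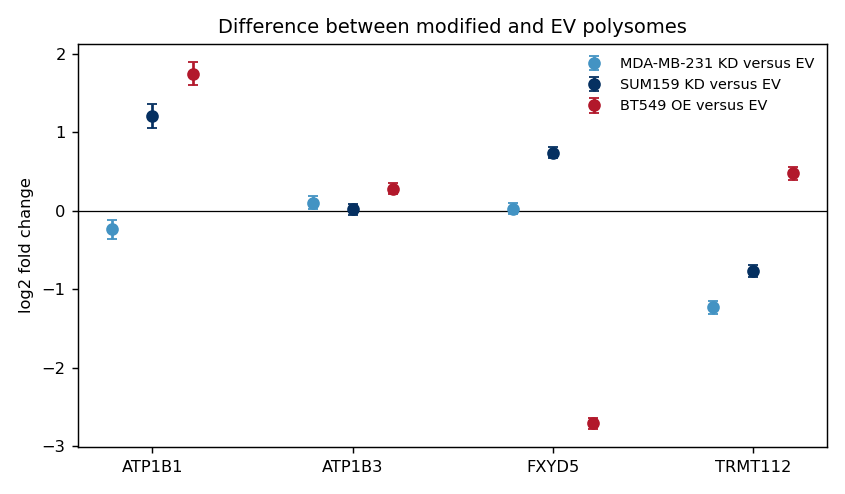
Log2 fold change of KD or OE over EV for ATP1B1, ATP1B3, FXYD5 and the targeted gene TRMT112, with 95% confidence intervals from the edgeR quasi-likelihood fit of all 12 libraries (light blue MDA-MB-231 KD, dark blue SUM159 KD, red BT549 OE). ATP1B1 lay at 1.21 in SUM159 KD and 1.75 in BT549 OE, while FXYD5 lay at 0.74 and -2.71.

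Nearly all of the ATP1B1 count sat in 3 of its 19 transcripts, ATP1B1-201, ATP1B1-202 and ATP1B1-214, which together held 96.4% to 99.4% of the gene's count in each library and were the only ones with a mean of at least 10 counts. Their coding sequences were identical base for base (909 bases, chr1:169106830-169131552), so they encode the same protein. They differ outside it: the leader before the start codon was 140 bases in ATP1B1-201, 529 in ATP1B1-202 and 196 in ATP1B1-214. The part after these 909 bases, with the stop codon included, was 1167, 1170 and 225 bases. The leaders of ATP1B1-202 and ATP1B1-214 are spliced, and the 30 bases around each junction are shown because they tell the transcripts apart, with the bases of the downstream exon in capitals. The upstream exon ends at chr1:169105815 in ATP1B1-202 and at chr1:169106421 in ATP1B1-214. The downstream exon begins at chr1:169106420 and chr1:169106733 respectively.
ATP1B1-202: gcgagggggcggcagAGGTCAGGGGAGGCG
ATP1B1-214: cctgtctctgcagagAGCCAGGCCGGAGAA

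The division of the gene's count among these transcripts was described by group and not tested, and the share of ATP1B1-201 overlapped between the libraries of MDA-MB-231 EV and SUM159 EV. ATP1B1-201, the transcript with the shortest leader, held 55.2% ± 7.35 (SD, n = 2) of the count in MDA-MB-231 EV and 42.9% ± 1.69 in KD. In SUM159 it held 56.2% ± 11.53 in EV and 70.9% ± 1.01 in KD, and in BT549 32.3% ± 0.778 in EV and 40.5% ± 6.06 in OE. ATP1B1-202, with the longest leader, held 24.2% ± 4.99 and 31.7% ± 1.98 in MDA-MB-231 EV and KD, 26.4% ± 3.94 and 14.7% ± 2.28 in SUM159 EV and KD, and 38.8% ± 2.10 and 30.9% ± 2.20 in BT549 EV and OE. The share of ATP1B1-202 was thus lower where the gene's level was higher in SUM159 and BT549, although reads of the shared coding part were divided by the authors' counting tool and not observed per transcript.

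Tested one by one, ATP1B1-201 had the largest fitted change of the 3 in SUM159. It stood at 14.0 and 8.82 CPM in EV and at 33.5 and 31.8 CPM in KD, a log2 fold change of 1.52 (SE 0.20, edgeR adjusted p = 0.000592), where 12.5% of the 66844 transcripts tested were called. ATP1B1-202 stood at 5.12 and 5.34 CPM in EV and 6.12 and 7.39 CPM in KD (0.37, 95% interval -0.08 to 0.82, edgeR adjusted p = 0.326). ATP1B1-214 had a log2 fold change of 0.95 (SE 0.26, edgeR adjusted p = 0.04). Whether the changes of the transcripts differ from each other was not tested.

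In BT549 OE all 3 transcripts rose. ATP1B1-201 went from 7.85 and 7.01 CPM in EV to 26.7 and 36.2 CPM in OE, by 2.08 on the log2 scale (SE 0.21, edgeR adjusted p = 4.5e-05), where 21.4% of transcripts were called. ATP1B1-202 went from 9.60 and 8.20 CPM to 24.0 and 23.8 CPM, by 1.42 (SE 0.20, edgeR adjusted p = 0.00042), and the log2 fold change of ATP1B1-214 was 1.76 (SE 0.25, edgeR adjusted p = 0.000551). None of the 3 was called in MDA-MB-231 KD by edgeR, where 3.5% of transcripts were, and 1 of them, ATP1B1-201, had an unadjusted p under 0.05. Its libraries gave 46.7 and 42.2 CPM in EV and 29.97 and 28.7 CPM in KD, a log2 fold change of -0.60 (SE 0.20, edgeR adjusted p = 0.176). The KD effects on ATP1B1-201 differed between the lines by -2.12 (SE 0.28, edgeR adjusted p = 0.000909), in a test that called 8.46% of transcripts.

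**Figure D4:**
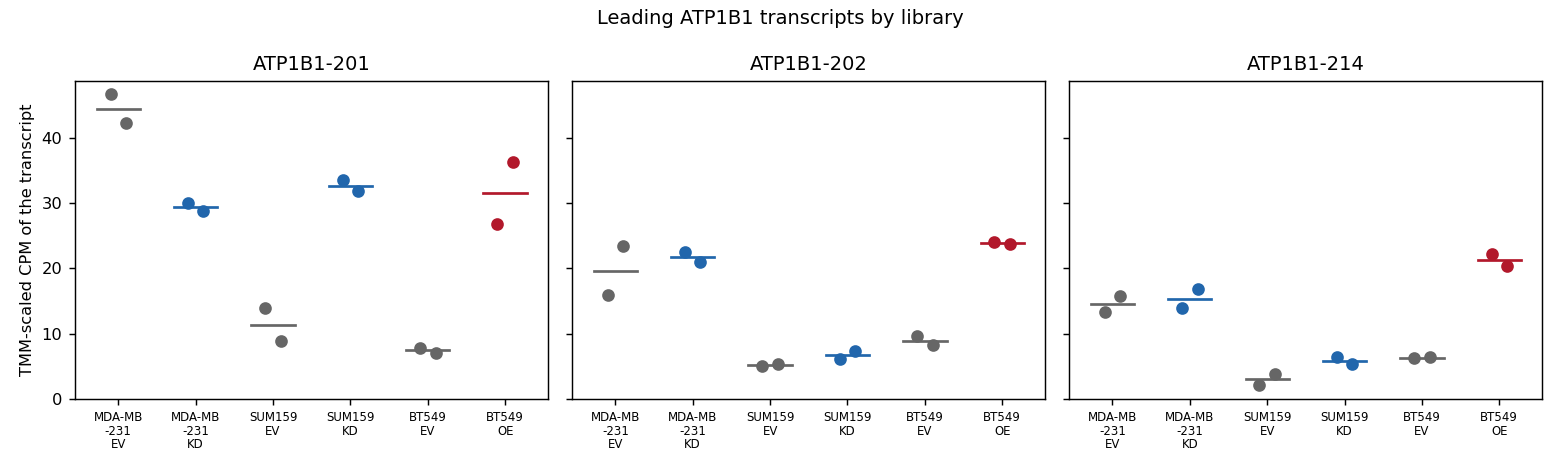
TMM-scaled CPM of the 3 leading ATP1B1 transcripts, scaled over all transcripts, with 1 point per library and a line at the mean of the 2 libraries of each group (grey EV, blue KD, red OE). In SUM159 KD, ATP1B1-201 lay at 31.8 and 33.5 CPM, and ATP1B1-202 and ATP1B1-214 at 7.39 CPM or less.

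ATP1B1 shares 287 exonic bases with NME7 on the opposite strand, 192 of them within its 3 leading transcripts, and the strand setting of the counting is not given in the sources used here. Whether reads from those bases were counted for the gene they came from is therefore not known. FXYD5 and ATP1B3 each had 1 dominant transcript. FXYD5-204 held 82.2% to 88.4% of the FXYD5 count as group means and had log2 fold changes of 0.77 in SUM159 KD (edgeR adjusted p = 1.03e-07) and -2.66 in BT549 OE (edgeR adjusted p = 7.69e-12). FXYD5-207, the next in count, fell by 3.46 in BT549 OE (edgeR adjusted p = 2.86e-08). ATP1B3-201 held 95.8% to 98.4% of its gene and rose by 0.29 in BT549 OE (edgeR adjusted p = 0.000611).

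Of the other FXYD and NKAIN symbols, 5 were in the table, and 2 of these, FXYD7 and NKAIN1, passed the filter. Every transcript of the table has a value above 0 in at least 1 BT549 library, so family members expressed in the other lines alone are not analysed here. FXYD7, whose product is an FXYD protein of brain, had 57 and 69 counts in BT549 EV and 12 and 10 in OE (log2 fold change -2.48, SE 0.58, edgeR adjusted p = 0.000733). Its direction was that of FXYD5, at a far lower level. NKAIN1, whose product binds beta subunits, had at most 15 counts in any library and was not called in any of the 3 comparisons.

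Sodium and potassium handling genes outside the pump, among them channels, cotransporters, exchangers and the kinases that control them, were read as a list of 40 symbols. NHERF1 was listed under its old symbol as well. Of the list, 35 symbols were in the table and 32 were tested. In MDA-MB-231 KD 9 rose, 5 fell and 18 did not pass, where 21.2% of all genes tested rose and 16.5% fell, and the median log2 fold change of the list was 0.00 beside 0.00 over all genes. SUM159 KD had 13 higher, 14 lower and 5 not called, against a background of 28.6% higher and 31.4% lower, with a median of 0.05 beside 0.00. BT549 OE had 10 higher, 13 lower and 9 not called, against 35.6% higher and 35% lower, with a median of -0.11 beside 0.02.

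KCNN4, a calcium-activated potassium channel, was in each comparison among the 2 largest increases of called genes of the list with at least 50 counts on average. Its counts were 979 and 921 in MDA-MB-231 EV and 1645 and 1453 in KD, 14 and 16 in SUM159 EV and 64 and 93 in KD, and 108 and 143 in BT549 EV and 528 and 505 in OE. The log2 fold changes were 0.74 (SE 0.08), 2.26 (SE 0.27) and 2.06 (SE 0.12), with edgeR adjusted p of 5.75e-08, 1.38e-07 and 1.5e-13. In SUM159 KD, SCNN1A, the alpha subunit of the epithelial sodium channel, rose by 2.07 (SE 0.13, edgeR adjusted p = 1.01e-12), while NEDD4L, the ubiquitin ligase that removes this channel from the membrane, had a log2 fold change of -1.99 (SE 0.13, edgeR adjusted p = 5.8e-12). SLC12A7, a potassium-chloride cotransporter, was at -1.76 (SE 0.06, edgeR adjusted p = 1.02e-15).

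In MDA-MB-231 KD the phosphate cotransporter SLC20A2 rose by 0.78 (SE 0.08, edgeR adjusted p = 4.07e-08), and the inositol cotransporter SLC5A3 and the kinase WNK4 were at -0.63 (SE 0.15, edgeR adjusted p = 0.00139) and -0.57 (SE 0.12, edgeR adjusted p = 0.000416). In BT549 OE the phosphate cotransporter SLC20A1 was at -1.86 (SE 0.04, edgeR adjusted p = 2.95e-22) and NHERF1, a scaffold of membrane transporters, at -1.76 (SE 0.05, edgeR adjusted p = 8.57e-20). KCNK1, a potassium leak channel, was called higher in BT549 OE (edgeR adjusted p = 0.00391) on 4 and 3 counts against 0 in both EV libraries, and no fold is given.

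Genes of cell contacts were read because ATP1B1 and FXYD5 are both known from adhesion, and all 18 of the list were tested. In MDA-MB-231 KD 3 rose, 3 fell and 12 did not pass, where 21.2% of all genes tested rose and 16.5% fell, with a median log2 fold change of 0.01 beside 0.00 over all genes. SUM159 KD had 3 higher, 8 lower and 7 not called, beside 28.6% higher and 31.4% lower of all genes, with a median of -0.16 beside 0.00. BT549 OE had 5 higher, 10 lower and 3 not called, beside 35.6% and 35%, with a median of -0.73 beside 0.02. The tight junction gene CLDN4 rose in both KD lines, by 1.69 in MDA-MB-231 (SE 0.08, edgeR adjusted p = 7.88e-14) and by 1.42 in SUM159 (SE 0.16, edgeR adjusted p = 3.67e-08). CLDN1, of the same family, had 200 and 213 counts in MDA-MB-231 EV and 136 and 113 in KD, a log2 fold change of -0.69 (SE 0.12, edgeR adjusted p = 8.38e-05). In SUM159 it had 768 and 730 counts in EV and 48 and 57 in KD, a log2 fold change of -3.94 (SE 0.12, edgeR adjusted p = 2.54e-18).

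Desmoplakin (DSP), which ties desmosomes to keratin filaments, had 325 and 291 counts in MDA-MB-231 EV and 217 and 178 in KD (log2 fold change -0.61, SE 0.21, edgeR adjusted p = 0.0283). It had 225 and 167 counts in SUM159 EV and 13 and 5 in KD (-4.54, SE 0.38, edgeR adjusted p = 3.14e-10), and 80 and 167 in BT549 EV and 1 and 0 in OE. Occludin (OCLN), a tight junction protein, had 408 and 395 counts in BT549 EV and 0 and 3 in OE, and DSP and OCLN were called lower in BT549 OE (edgeR adjusted p of 7.55e-10 for DSP and 8.18e-17 for OCLN). The mesenchymal cadherin gene CDH11 rose in MDA-MB-231 KD by 1.68 (SE 0.08, edgeR adjusted p = 4.67e-13) and in BT549 OE by 0.37 (SE 0.04, edgeR adjusted p = 1.23e-08). N-cadherin (CDH2) rose by 0.26 in SUM159 KD (SE 0.06, edgeR adjusted p = 0.000711), and alpha-catenin (CTNNA1) by 0.36 in BT549 OE (SE 0.04, edgeR adjusted p = 3.69e-09).

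The genes whose levels followed each member most closely over the 12 libraries were named by Pearson's r of log2 CPM, over 12589 genes of at least 50 counts on average, with no test. The libraries of a line share a cell line, so r mostly follows 6 group means. TPD52L2 (r = 0.97), AGAP1 (r = 0.97) and MISP3 (r = 0.96) were the most like ATP1B1. TPD52L2, for example, had group means of 264 to 426 CPM, with SUM159 EV and BT549 EV lowest and BT549 OE highest. HOXA9, ERICH1 and HGH1 (each r = 0.996) were the most like ATP1B3, rising from MDA-MB-231 over SUM159 to BT549. Genes picked by r share the order of the member by that choice. HOXA9 was at 0 CPM in MDA-MB-231 EV and KD and at 0.674 and 0.835 CPM in SUM159 EV and KD. It therefore reached the limit of 50 counts through BT549, at 6.31 CPM in EV and 17.96 in OE. SNED1 (r = 0.99), PAK6 (r = 0.98) and LY6E (r = 0.98) were the most like FXYD5, and like it they were highest in BT549 EV. LY6E, an interferon-induced membrane protein gene, stood at 7657 CPM there and at 181 CPM in BT549 OE. PAK6 was at 53.6 CPM in BT549 EV and at 0.737 to 2.07 CPM in the other groups.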

How the data were processed

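Polysomal RNA of 12 libraries in 6 groups, taken from the sample labels, was analysed. Per the methods and the submitters' processing notes, the authors used Trimmomatic, HISAT2 (GRCh38), SAMtools for duplicates, and Partek; the counting tool, annotation and strand setting are not given in the sources used here. The methods name a stranded total RNA kit and the labels a poly(A) kit. The authors deposited expected counts for each Ensembl transcript, not normalized; 5.08% of rows hold a missing mark in the 8 MDA-MB-231 and SUM159 columns, taken as 0.

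Transcripts (79.6% of 201932 matched to GENCODE 44) were summed to 24559 symbols, 111 of which join several genes, and rounded. Genes kept by filterByExpr were TMM-scaled, and the quasi-likelihood test of edgeR 4.0.16 (R 4.3.3) was run in a single model of the 6 groups (6 residual degrees of freedom), with Benjamini-Hochberg adjustment over all 16538 genes (or 66844 transcripts). TPM used each transcript's annotated length. Replicates are not labelled as separate cultures, so p-values measure only the spread between these libraries. Replicates differed by a median of 0.08 to 0.10 on the log2 scale, and no pair agreed within sampling noise (chi-square per degree of freedom 2.14 to 2.96).

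The members and lists were chosen with earlier results of these data known. Text names the members, TRMT112, tested family symbols, the 3 most alike genes per member, and per list and comparison the 2 called genes with the largest change in each direction and a mean of at least 50 counts. Some genes that these rules name were left out of the text. As alternatives, scaling used RLE size factors or library size only, the test was that of DESeq2 1.42.0, genes were kept without a filter or from an average of 50 counts, the replicate number was a block, lines were fitted alone, marked transcripts or single libraries were left out, and length was handled differently.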

Additional observations from a re-analysis of the deposited data

Results flagged for a closer look

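The KD effect differed between MDA-MB-231 and SUM159 by the edgeR test of the difference itself for ATP1B1 (-1.45 on the log2 scale), for FXYD5 (-0.71) and for the transcript ATP1B1-201 (-2.12), in each case with the smaller or negative change in MDA-MB-231. TRMT112 itself fell by more in MDA-MB-231 than in SUM159, with a difference of -0.47 (SE 0.06, edgeR adjusted p = 1.83e-07), and its part in the other differences was not tested.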

How the results depend on the processing

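Of 246 tested values under alternatives, 234 kept direction and side of the threshold, 7 lost their call and 5 changed sign. The 32 counts of genes called stayed within 1.5 times, and the 12 shares moved by more than 1 SD. ATP1B1 and FXYD5 in SUM159 KD and BT549 OE, ATP1B3 in BT549 OE and the differences of KD effects for ATP1B1 and FXYD5 kept both under every alternative run, leaving out each library included. With library size only, the median gene moved by -0.08 in MDA-MB-231, -0.03 in SUM159 and 0.02 in BT549, and small values changed sign: FXYD5 in MDA-MB-231 KD (-0.064), ATP1B3 in SUM159 KD (-0.016), ATP1B1 between BT549 EV and SUM159 EV (-0.012) and ATP1B1-214 in MDA-MB-231 KD (-0.0042). ATP1B3 in MDA-MB-231 KD lost its call with library size only (0.014), at least 50 counts on average (0.090) and each line alone (0.092); the cause was not tested. Leaving out each library in turn gave 0.058 to 0.16 for ATP1B3 and -0.30 to -0.17 for ATP1B1 in MDA-MB-231 KD, and -0.0074 to 0.052 for ATP1B3 in SUM159 KD; a lone left-over library was assumed to vary like the other groups.

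The ATP1B1 share of the beta subunit mRNAs, with EV before KD or OE and lines in the order MDA-MB-231, SUM159 and BT549, was 46.6%, 40.8%, 9.27%, 19.0%, 5.13% and 13.0% from counts not divided by length, and 21.0%, 17.4%, 3.02%, 6.65%, 1.62% and 4.35% with the longest annotated transcript, with the same direction in each line.

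Genes called ranged from 5774 to 6699 in MDA-MB-231, 9222 to 9975 in SUM159, 10145 to 11871 in BT549 and 7877 to 8573 for the difference. In MDA-MB-231, 56.2% of called genes were higher, and 36.7% with library size only. Same-numbered libraries of EV and modified groups did not deviate together (r of 0.02, -0.02 and 0.00). The labels do not say whether equal numbers share a culture or preparation, and the main fit used the numbers as names only. With the replicate block, 6217, 9831 and 11581 genes were called, ATP1B1 was at -0.24, 1.21 and 1.75, and no call on a member changed. ATP1B2 gave no value where low counts were filtered, and its fits without the filter stand in the report only.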
